A study of Mus musculus with 4 samples.

Results

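The respiratory chain and ATP synthase are described here through 109 of the 28000 genes in the deposited tables. They were taken by symbol as the Ndufa, Ndufb, Ndufc, Ndufs, Ndufv, Sdh, Uqcr, Cox4i, Cox5, Cox6, Cox7, Cox8 and Atp5 genes, which are encoded in the nucleus, and the mt-Nd, mt-Co, mt-Cytb and mt-Atp genes, which are encoded in mitochondrial DNA. Of these, 96 were nuclear and 13 were mitochondrial (mt-). By complex, the nuclear members were 45 of complex I, 8 of complex II, 8 of complex III, 18 of complex IV and 17 of complex V, and the mt- members were 7 of complex I, 1 of complex III, 3 of complex IV and 2 of complex V. The symbol rule also took in factors that are not subunits, namely 7 Ndufaf and 4 Sdhaf assembly factors, Cox7a2l, Atp5s and Atp5sl. Ndufa4 was counted with complex I by its symbol, although its protein is now known to sit in complex IV.

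Complexes I and II pass electrons from NADH and succinate to coenzyme Q, complex III passes them on to cytochrome c, and complex IV hands them to oxygen. Complexes I, III and IV pump protons, and complex V, the ATP synthase, uses the resulting gradient to make ATP. Complexes I, III, IV and V are assembled from products of both genomes, while complex II is wholly nuclear, and fast-spiking interneurons are known for a high mitochondrial content and demand for oxidative energy.

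The cells came from somatosensory cortex. The mice were triple transgenic (SST-Cre; LSL-tdTomato; X94-GFP), and in them Cre recombinase expressed from the somatostatin (Sst) locus switches on tdTomato in SST interneurons and the X94 transgene labels some of them with GFP. One library held GFP+/tdTomato+ cells at P97 (postnatal day 97), and a second held tdTomato+ cells, taken irrespective of GFP, from the same 6 mice at P97 and the same dissociated cells. The other libraries (2) held tdTomato+ cells at P45, from an unstated number of mice. All groups carried the same 3 alleles, the GFP+ sort samples only the SST cells that the X94 line labels, and the 6 mice at P97 were pooled.

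Counts are unique molecular identifiers (UMIs), each standing for 1 captured transcript molecule tagged at its 3′ end. Levels are given as UMIs per 1000000 UMIs of the summed cells (CPM), so that they count molecules and are not divided by gene length. Cells were barcodes with at least 2000 UMIs, under 25% of UMIs from mt- genes and at least 3 Sst UMIs, of which there were 186 of 232 barcodes in the GFP+/tdTomato+ library, 553 of 741 in the tdTomato+ library at P97, and 667 of 866 and 645 of 772 in the P45 libraries. Total UMIs per library were between 3410049 and 5693022. The median cell held 16473.5 UMIs in the GFP+/tdTomato+ library, 7701 in the tdTomato+ library at P97, and 5162 and 6163 in the P45 libraries, and pairs of libraries shared 0 to 2 barcodes. Barcodes of at least 2000 UMIs that failed the mt- limit numbered 39, 80, 1 and 4 in the same order, so the P97 libraries lost more cells to it than the P45 libraries did.

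Within the 3 tdTomato+ libraries, cells were placed in 5 groups by having at least 1 UMI of exactly 1 of Pvalb (parvalbumin), Hpse (heparanase), Calb2 (calretinin), Crh (corticotropin-releasing hormone) and Th (tyrosine hydroxylase), beside cells with none of these markers. Cells with several were left out, 96 at P97 and 80 and 87 at P45. Pvalb+ cells numbered 163 at P97 and 101 and 123 at P45, Hpse+ cells 22, 26 and 35, Calb2+ cells 30, 97 and 52, and Crh+ cells 27, 32 and 46. No cell at P97 had a Th UMI, and the Th+ group was 20 cells of 1 P45 library, since the 9 of the other fell under the minimum of 10. When SST cells were thinned to 3000 UMIs, Pvalb was seen in 23.1% of 1675 tdTomato+ cells, Hpse in 6.75%, Calb2 in 185 of the cells, Crh in 6.45% and Th in 1.37%. Among 105 cells of the same libraries and the same depth that carried Slc17a7, an excitatory neuron gene, and under 3 Sst UMIs, 1 had Pvalb, 1 Hpse, 1 Calb2 and none Crh or Th, where a count of 0 allows up to 3 cells.

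The members made up a large part of the transcriptome of SST cells. Over all SST cells the nuclear members summed to 34478 CPM at P97, and to 37119 and 38388 CPM at P45. The mt- members summed to 53414 CPM at P97, and to 49766 and 47004 CPM at P45. The nuclear sum was unevenly shared, since 19 nuclear members gave 50% of it.

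Levels in CPM, averaged over the 3 tdTomato+ libraries, were lowest for the nuclear members of complex II. The median member stood at 592 CPM in complex IV, 554 in complex III, 407 in complex V, 252 in complex I and 80.3 in complex II. The highest members were Cox8a at 2378 CPM in complex IV, Ndufa4 at 1249 in the Ndufa family, Uqcr10 at 925 in complex III, Atp5g1 at 899 in complex V and Sdha, the flavoprotein of succinate dehydrogenase, at 237 in complex II. Among mt- members, mt-Atp6, which forms part of the proton channel of ATP synthase, reached 14672 CPM, mt-Nd1 7699, mt-Co3 7211 and mt-Cytb, the cytochrome b of complex III, 4143. At the low end stood mt-Nd6 at 12.7 CPM, the only mt- member encoded on the other strand, and mt-Atp8 at 154 CPM, whose libraries differed widely as described for the comparison of ages.

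Where a subunit comes in several isoforms, SST cells carried 1 of them almost alone. Cox4i1 averaged 987 ± 49.9 CPM (SD, n = 3 tdTomato+ libraries throughout), while Cox4i2, an isoform known from lung and from low oxygen, had 4 UMIs in all tdTomato+ cells together. Cox6b1 averaged 967 ± 105 CPM against 84 UMIs in all for Cox6b2, and Cox7a2 averaged 994 ± 45.9 CPM against 46 UMIs for the heart and muscle isoform Cox7a1. Cox8a, Cox7b and Ndufa4 were likewise each accompanied by partners with at most 19 UMIs, namely 1 for Cox8b and 0 for Cox8c, 19 for Cox7b2 and 13 for Ndufa4l2. The exception among low isoforms was Cox6a2, the heart and muscle form of subunit 6A: it had 100 UMIs over all, gathered in few cells, against 763 ± 24.9 CPM for Cox6a1. The 3 genes for the c-ring of ATP synthase, which encode the same mature protein, were all expressed, with Atp5g1 at 899 ± 180 CPM, Atp5g3 at 404 ± 2.58 CPM and Atp5g2 at 278 ± 43.5 CPM.

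**Figure D1:**
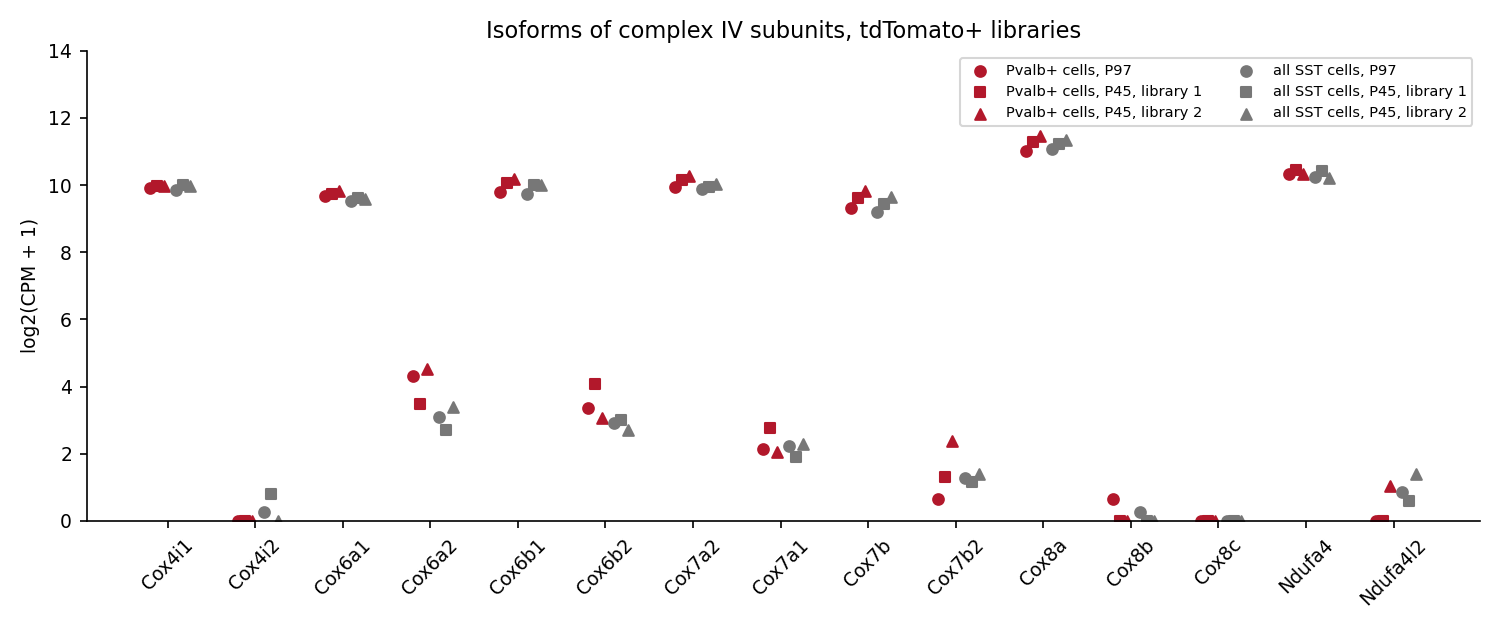
Isoforms of complex IV subunits on the log2(CPM + 1) scale, in Pvalb+ cells (red, left of each pair) and all SST cells (grey) of the 3 tdTomato+ libraries, where Pvalb+ cells are also part of all SST cells. One isoform of each subunit lies near 10 on this scale and its partners lie under 5, and Cox6a2 stood at 19.0, 10.2 and 22.2 CPM in Pvalb+ cells.

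Among the 4 marker groups present in all 3 libraries, the summed levels of both genomes were highest on average in Pvalb+ cells. The nuclear members summed to 36260 CPM at P97 and 38344 and 41510 CPM at P45 in Pvalb+ cells, a mean of 38704 ± 2644 (SD, n = 3), against means of 35932 ± 3725 in Calb2+, 35404 ± 3281 in Hpse+, 34567 ± 307 in Crh+ and 33224 ± 2341 in cells with none of these markers. The ranges of these groups overlapped, but within each of the 3 libraries Pvalb+ cells stood above Calb2+ cells, Crh+ cells and cells with none, and above Hpse+ cells in 2 of 3. The mt- members summed to 57680 CPM at P97 and 59559 and 54470 CPM at P45 in Pvalb+ cells, a mean of 57236 ± 2573, against 53965 ± 7485 in Hpse+, 47221 ± 4478 in cells with none, 45326 ± 4947 in Calb2+ and 42735 ± 985 in Crh+ cells. Here Pvalb+ and Crh+ cells did not overlap, and the 20 Th+ cells of 1 library stood at 59758 CPM for mt- members, slightly above Pvalb+ cells of that library, and at 33893 CPM for nuclear members, below them. These sums are descriptions and were not tested.

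**Figure D2:**
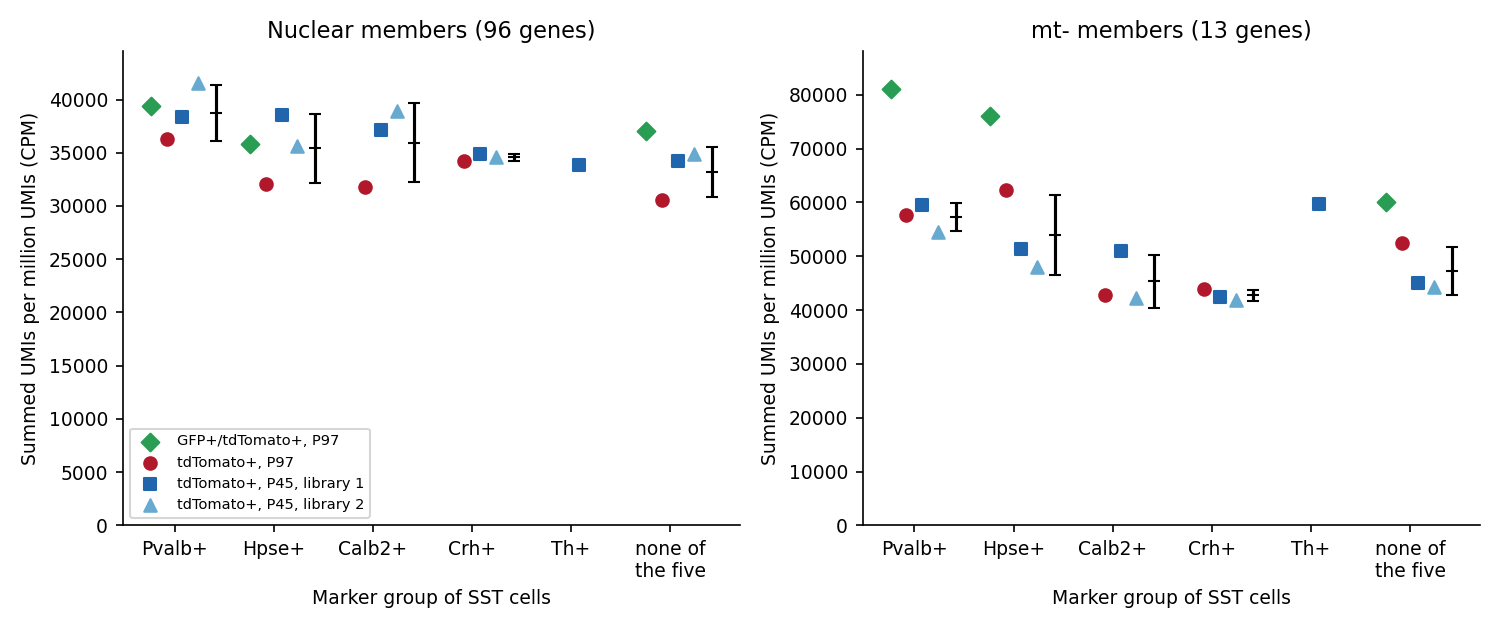
Summed CPM of the 96 nuclear (left) and 13 mt- (right) members, by marker group, with 1 point per library and the mean and SD of the 3 tdTomato+ libraries as black bars. The mt- sum lies between 54470 and 59559 in Pvalb+ cells of the tdTomato+ libraries and between 41925 and 43831 in Crh+ cells.

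The balance between genomes also differed. The nuclear sum divided by the mt- sum was 0.629 at P97 and 0.644 and 0.762 at P45 in Pvalb+ cells, and 0.781 at P97 and 0.821 and 0.826 at P45 in Crh+ cells, with no overlap between the groups. In Calb2+ cells it was 0.742, 0.728 and 0.923 in the same order of libraries, and in Hpse+ cells 0.513, 0.750 and 0.740, so both of these overlapped with Pvalb+ cells.

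To ask which members differed in Pvalb+ cells, counts summed per library and group were compared with edgeR against the average of the other 4 marker groups, with library as a block. Of 88 nuclear members tested, 7 were higher and 0 lower at an adjusted p under 0.05, where 4.64% of all 8603 genes tested were called higher and 2.2% lower. Among genes at least as highly expressed as the lower quartile of the nuclear members, 10.1% were called higher and 5.69% lower, so the share of members called higher lay below that of such genes. Without the P97 library or without the second P45 library 3 nuclear members were called, and 1 was after thinning every cell to 3000 UMIs or without library as a block. The calls fell on 5 of 12 tested members of complex IV, 1 of 8 of complex III and 1 of 17 of complex V, and on 0 of 43 of complex I and 0 of 8 of complex II. One of the complex IV calls, Cox6a2, passed the filter on low counts through the groups where it was high, so that it had to differ, and without it 6 of 87 nuclear members and 4 of 11 of complex IV were called. Fewer members were called than leaned one way: 65 of the 88 had a log2 difference above 0, with a median of 0.13 beside 0.05 for all genes, and 43 were above 0 in each of the 3 libraries while 1 was below 0 in each. Counts by sign, here and for the groups that follow, were taken for members only. Of the 8 nuclear members not tested for low counts, Cox4i2, Cox6b2, Cox7a1, Cox7b2, Cox8b and Cox8c belong to complex IV and Ndufa4l2 and Ndufaf1 to complex I by symbol.

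Cox6c, a small subunit of complex IV, stood at 1545 CPM at P97 and 1685 and 1855 CPM at P45 in Pvalb+ cells, against 1320, 1650 and 1506 CPM in Hpse+, 1193, 1455 and 1468 CPM in Calb2+, and 1201, 1344 and 1454 CPM in Crh+ cells. In each library Pvalb+ cells were highest, and the 20 Th+ cells were lowest at 940 CPM. The log2 difference was 0.41 (SE 0.08, edgeR adjusted p = 0.000269).

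Cox7b, an X-linked small subunit of complex IV, stood at 640 CPM at P97 and 787 and 911 CPM at P45 in Pvalb+ cells. It reached 555, 744 and 689 CPM in Hpse+, 510, 681 and 763 CPM in Calb2+ and 551, 704 and 718 CPM in Crh+ cells, below Pvalb+ cells in every library, with a log2 difference of 0.46 (SE 0.09, adjusted p = 0.000494). Atp5k, the e subunit of ATP synthase, which helps its dimers form, stood at 887 CPM at P97 and 463 and 478 CPM at P45 in Pvalb+ cells, with a log2 difference of 0.41 (SE 0.10, adjusted p = 0.00437). For Atp5k the library mattered more than the marker group, since every group had its highest level at P97, and Hpse+ cells reached 480 CPM, slightly above Pvalb+ cells, in 1 P45 library. Th+ cells carried 355 CPM of Cox7b and 221 CPM of Atp5k, the lowest of the 5 groups.

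Uqcr11, a small subunit of complex III, was higher by 0.35 on the log2 scale (SE 0.10, adjusted p = 0.0156), with 645 CPM at P97 and 732 and 774 CPM at P45 in Pvalb+ cells. The smaller of the called changes were those of Cox7a2 and Cox6a1, both 0.28 (SE 0.09 each, adjusted p = 0.0364 and 0.0391). Cox6a1 stood at 820, 842 and 912 CPM in Pvalb+ cells at P97 and in the P45 libraries, above every other of the 3-library marker groups in each library, the nearest being Calb2+ cells with 663, 813 and 672 CPM. Among mt- members, mt-Atp6 was higher, at 16383 CPM at P97 and 18247 and 16983 CPM at P45 in Pvalb+ cells (log2 difference 0.25, SE 0.07, adjusted p = 0.0285), and 12 of 13 mt- members were above 0 in each library. Without the second P45 library no mt- member was called (0 of 13), and without the first 4 were.

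**Figure D3:**
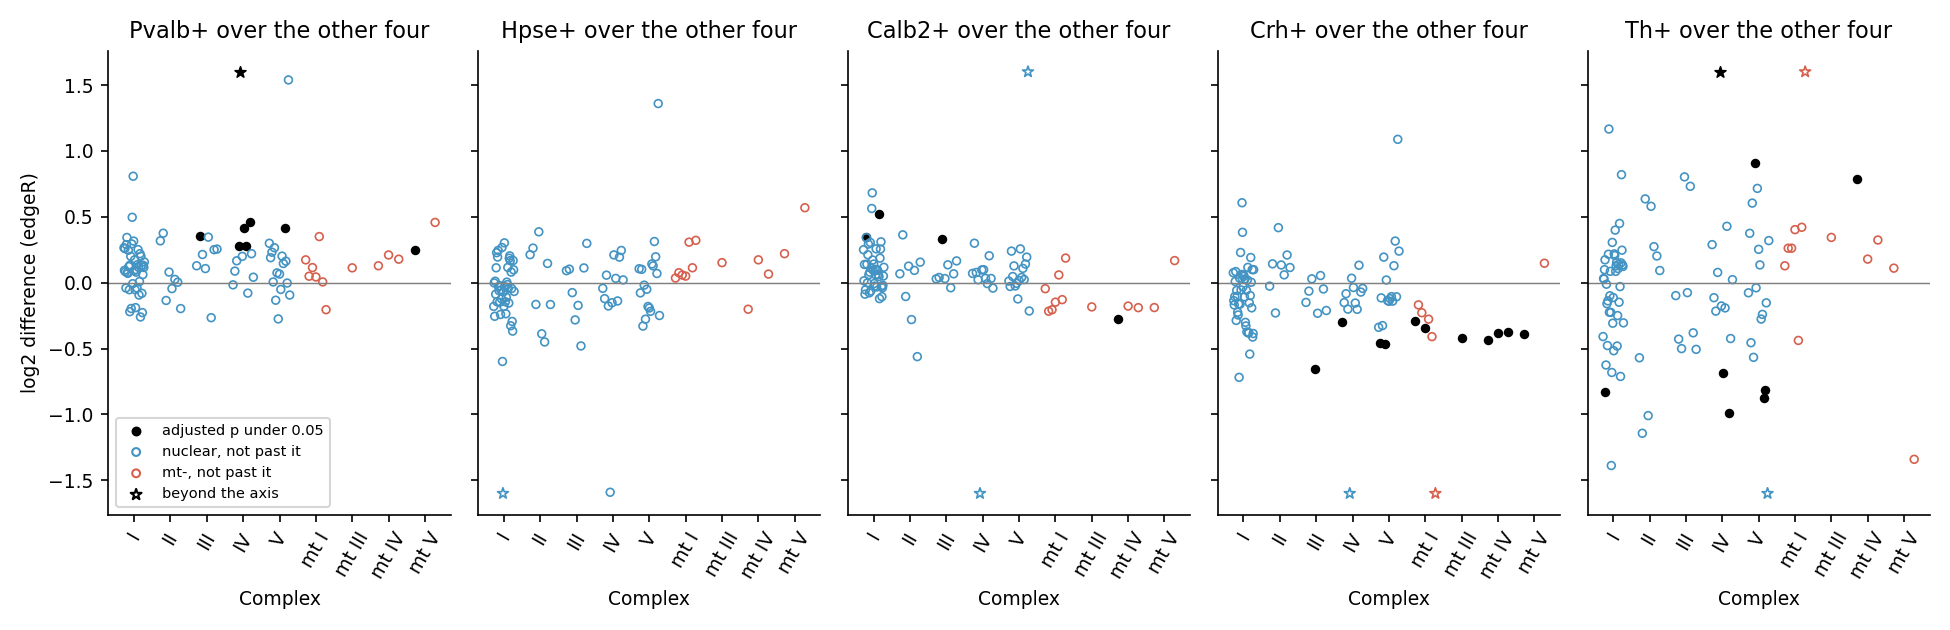
Log2 difference of each tested member in each marker group against the average of the other 4 (edgeR), by complex, with blue open points for nuclear and red open points for mt- members, black filled points for an adjusted p under 0.05 and stars for values beyond the axis. The 8 calls in Pvalb+ cells lie above 0 and the 11 in Crh+ cells below it, and the Th+ values rest on 20 cells of 1 library.

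The average against which Pvalb+ cells were set includes the Th+ group, so the fit was repeated without it, a choice made once the values were known. The log2 differences of Cox7b and Atp5k were then 0.23 and 0.21 and no longer passed the threshold, while Cox6c (0.26), Uqcr11 (0.26), Cox7a2 (0.25), Cox6a1 (0.32) and mt-Atp6 (0.29) still did. Sequencing depth moved with the group: the median Pvalb+ cell held 9865 UMIs at P97 and 6315 and 7565 at P45, against 6098, 4293 and 4763 in cells with none of these markers and 7291, 5221.5 and 7187.5 in Crh+ cells. In cells of 5000 to 10000 UMIs only, likewise chosen later, 0 nuclear members and 8 mt- members were called in Pvalb+ cells, with mt-Atp6 at 0.38, and the nuclear differences were smaller, for example 0.15 for Cox6c and 0.16 for Cox7b.

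The promoters of Atp5k and Cox6a1 are shown because both genes were called in Pvalb+ cells and both hold a full site for NRF1, a transcription factor known for driving nuclear genes of the respiratory chain. The windows run from 250 bases before to 50 after the gene start in RefSeq on GRCm38.p6, at chr5:108434350-108434649 for Atp5k and chr5:115348909-115349208 for Cox6a1, both on the minus strand, and capitals mark the 10 bases of the NRF1 site.
Atp5k: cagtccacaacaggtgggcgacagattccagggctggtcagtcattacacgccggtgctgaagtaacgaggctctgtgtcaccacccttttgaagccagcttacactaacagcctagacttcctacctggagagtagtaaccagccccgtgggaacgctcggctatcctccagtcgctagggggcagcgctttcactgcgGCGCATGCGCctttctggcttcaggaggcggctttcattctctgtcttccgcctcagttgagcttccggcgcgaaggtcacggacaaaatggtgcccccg
Cox6a1: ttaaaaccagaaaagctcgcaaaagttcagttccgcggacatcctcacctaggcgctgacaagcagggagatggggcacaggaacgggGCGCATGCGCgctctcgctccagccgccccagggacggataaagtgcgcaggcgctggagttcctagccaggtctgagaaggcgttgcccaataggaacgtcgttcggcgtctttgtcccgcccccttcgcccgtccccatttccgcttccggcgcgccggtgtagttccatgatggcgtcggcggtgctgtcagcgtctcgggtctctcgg

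Of the 96 nuclear members, 77 matched a promoter in the RefSeq table, with 82 windows. On either strand the full NRF1 site, the 10 capital letters above, was found in 7 of these windows, or 8.54%, against 0.971% of all 32851 windows of the same length, and its other holders were Atp5g2, Ndufa11, Ndufaf4, Ndufaf5 and Uqcrc1. None of these 5 was called in Pvalb+ cells, and Uqcrc1 was among the members called lower in Crh+ cells. Cox6c, Cox6a2, Cox4i1, Atp5f1, Ndufa2 and Uqcrb, each called in some marker group, matched no promoter window, so theirs were not searched for any motif. CCGGAAGT, a site for GABPA and other ETS factors, was found in 5 windows (6.10% against 3.89% of all), those of Atp5h, Cox8a, Ndufs3, Uqcr11 and Uqcrh. TCAAGGTCA, a site for ERR nuclear receptors, was found in 2 (2.44% against 0.423%), and TATAAA, the TATA box, in 9 of the 82, against 13.6% of all windows. None of the motifs contains another, and a match describes these letters only.

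Cox6a2 was the seventh nuclear member called in Pvalb+ cells and the one most restricted to few cells. The gene lies at chr7:128205435-128206387 on the minus strand of GRCm38, in 3 exons, and shares 70 bases with Itgad on the other strand. In Pvalb+ cells it had 33 UMIs at P97 and 7 and 21 at P45, against 0, 0 and 1 in Hpse+, 0, 0 and 0 in Calb2+, 1, 0 and 0 in Crh+ and 3, 2 and 2 in cells with none of these markers. The 20 Th+ cells held 9 UMIs in 3 cells, or 86.3 CPM, and 4 of the 9 Th+ cells of the other P45 library held 10 more. The fitted log2 difference in Pvalb+ cells was 2.54, a description only: the gene was tested because of its counts in Pvalb+ and Th+ cells, and the size is set in part by the prior count, since groups at 0 enter the average.

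Over the 3 tdTomato+ libraries, 51 of 1865 SST cells held Cox6a2, with 100 UMIs in all and at least 2 UMIs in 25 of the cells. Of the 51, 36 also held Pvalb, 10 held Th and 8 held neither. At 3000 UMIs per cell it was seen in 30 of 1675 SST cells (1.79%) and in 0 of the 105 excitatory cells, which allows up to 3.

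Sst and 3 of the 10 listed markers of Pvalb interneurons that lack Sst (Syt2, Tac1 and Pthlh) were also counted in the cells with Cox6a2, as a description. The listed markers Rspo2, Wt1, Kcnip2, Gpr149, Il1rapl2 and Ostn were not counted in this way. The median Sst count was 15 in cells with Cox6a2 and 29 in cells without at P97, and 16 with and 30 without and 21 with and 23 without at P45. Syt2, the synaptotagmin of fast transmitter release, was seen in 78.9% of cells with Cox6a2 and 15.5% of cells without at P97, in 2 of the 10 cells with and 5.78% without in 1 P45 library, and in 22.7% with and 5.30% without in the other. Tac1, a tachykinin precursor, was seen in 10.5% of cells with Cox6a2 and 1.31% of cells without at P97, and in 40% with and 3.50% without and 27.3% with and 1.93% without at P45. Pthlh was seen in 5.26% of cells with Cox6a2 and 0.936% of cells without at P97, but in 0 of the cells with and 0.304% and 0.321% of the cells without in the P45 libraries, where only 10 and 22 cells held Cox6a2. The cells with Cox6a2 were deeper as well, with a median of 12640 UMIs with and 7603.5 without at P97, 5659 with and 5153 without, and 7507.5 with and 6108 without at P45. Cox6a2 is itself in that list of markers, and whether such cells or their RNA entered the sort was not tested.

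Both genomes also followed the number of Pvalb UMIs in a cell. In cells with 0, 1, 2 to 4 and at least 5 Pvalb UMIs, nuclear members summed to 31195, 32987, 36473 and 39919 CPM at P97, to 35138, 40160, 41325 and 42462 CPM in 1 P45 library and to 37103, 39090, 40794 and 42952 CPM in the other. The mt- members summed to 51009, 50433, 53877 and 59316 CPM at P97, 47211, 49581, 54480 and 64707 CPM in 1 P45 library and 43664, 45695, 52044 and 65457 CPM in the other. Nuclear sums rose with each step in each of the 3 libraries, and mt- sums did so in both P45 libraries. Depth rose too, since the median cell held 6589 UMIs with 0 and 15230.5 with at least 5 Pvalb UMIs at P97, 4641 and 8080 in 1 P45 library and 5611 and 10767 in the other. Over all SST cells the nuclear share of UMIs rose with the logarithm of depth, with a correlation of 0.54 at P97 and 0.45 and 0.38 at P45. The mt- share fell with it, with correlations of -0.41, -0.23 and -0.25 in the same order. Between the bins of 4000 to 8000 and 8000 to 16000 UMIs, the nuclear sum of all cells rose from 29175 to 37068 CPM at P97. At P45 it rose from 35969 to 40875 and from 37210 to 40400 CPM.

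**Figure D4:**
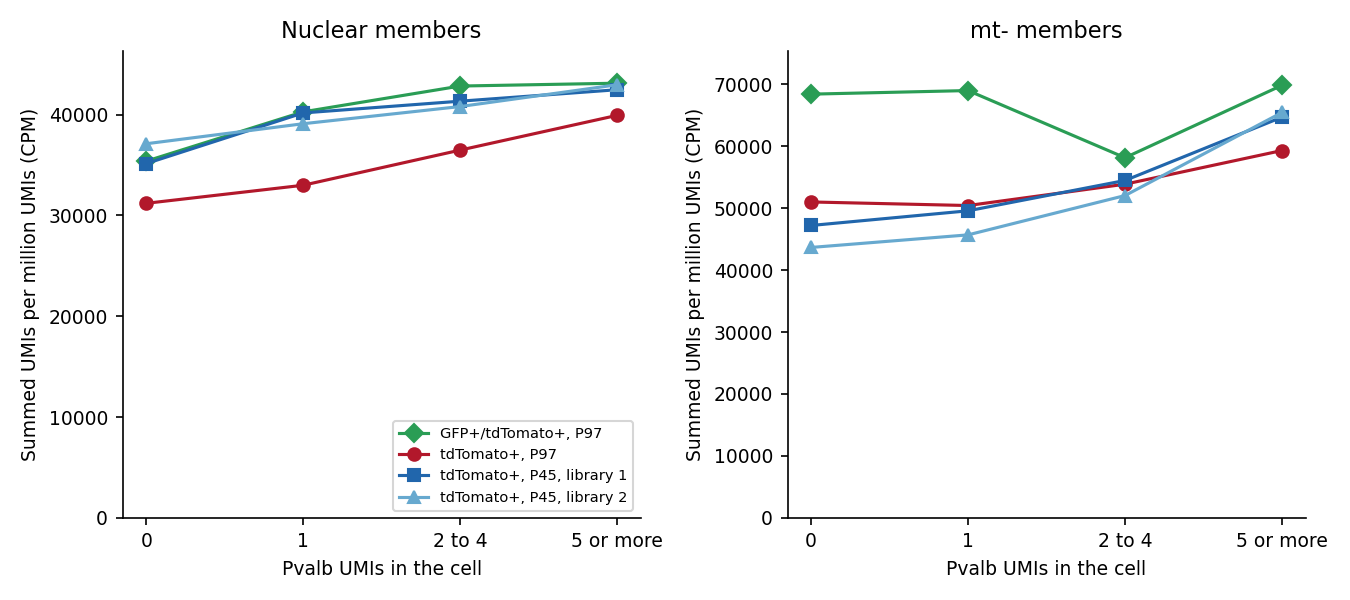
Summed CPM of nuclear (left) and mt- (right) members in cells with 0, 1, 2 to 4 and at least 5 Pvalb UMIs, with 1 line per library. The nuclear sums of the tdTomato+ libraries climb at each step, to between 39919 and 42952 at 5 or more, while the mt- sum of the GFP+/tdTomato+ library dips to 58156 at 2 to 4.

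Within bins of depth the nuclear sum was also higher in Pvalb+ cells, although the bins are wide and depth was not matched inside them. Among cells of 4000 to 8000 UMIs, the nuclear sum was 29832 CPM in all Pvalb+ cells and 28876 in Pvalb- cells at P97, 39834 and 34656 in 1 P45 library and 39601 and 36235 in the other. Among cells of 8000 to 16000 UMIs it was 37452 CPM in Pvalb+ and 36407 in Pvalb- cells at P97, 42974 and 38220, and 41341 and 39415 at P45. The mt- sum was higher in Pvalb+ cells in each of these bins as well, by larger margins, for example 53437 CPM in Pvalb+ and 41130 in Pvalb- cells at P97 from 8000 to 16000 UMIs. The exception was the bin of 2000 to 4000 UMIs at P97, with an mt- sum of 102676 CPM in 13 Pvalb+ cells and 115931 in 61 Pvalb- cells.

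Setting all Pvalb+ cells, including those with further markers, against all Pvalb- cells gave more calls, a comparison added once the values were known. By edgeR, 33 of 91 nuclear members were higher and 2 lower, where 7.22% of all genes were called higher and 7.32% lower. The share among genes as highly expressed as the members was not taken for this comparison. Cells with Pvalb were also deeper than cells without it in each library. The strongest by p was Atp5a1, the α subunit of the ATP synthase head (log2 difference 0.37, SE 0.07), and Sdha was higher by 0.31 (SE 0.07). The 2 lower were Ndufc2 (-0.22, SE 0.07) and Ndufs3 (-0.28, SE 0.10), both of complex I. Among mt- members, mt-Atp6, mt-Co1, mt-Co2 and mt-Co3 were higher. Markers of oligodendrocytes were unevenly spread: their sum was 1556 CPM at P97 and 4564 and 1519 CPM at P45 in Pvalb+ cells, against 30 to 48 CPM in Crh+ cells. Nearly all of it came from 5, 3 and 4 cells per tdTomato+ library with at least 20 such UMIs, and without these cells 12 nuclear members rather than 7 were called in Pvalb+ cells.

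In Hpse+ cells no member was called by edgeR in either direction, of 88 nuclear and 13 mt-, where 3.74% of all genes were called higher and 1.95% lower, and 9.1% and 4.73% of those at least as highly expressed as the lower quartile of nuclear members. This group held only 22 of the 79 cells with Hpse at P97, and 26 of 64 and 35 of 74 at P45. The rest carried further markers. At an unadjusted p under 0.05 stood 10 nuclear and 4 mt- members, and the DESeq2 Wald test also called 0. Other references did give calls, as counted in the closing section. Against cells with none of the markers, both nuclear and mt- members were called. With all cells with Hpse, including those with further markers, against all Hpse- cells, nuclear members were called. Among them were Atp5a1 (log2 difference 0.33) and Sdha (0.28) as higher and Cox6a2 as lower. The median log2 difference was -0.04 for nuclear and 0.11 for mt- members, beside 0.05 for all genes. The mt- sum was 62388 CPM at P97 and 51429 and 48078 CPM at P45, so the spread between libraries in this group was wide.

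Calb2+ cells had 3 nuclear members higher, where 4.79% of all genes were called higher and 2.07% lower (12.1% and 3.89% of the well expressed genes defined above), and 1 mt- member lower. The nuclear count was 7 without the P97 library, 1 without the first P45 library and 0 without the second. Ndufc2, an accessory subunit of complex I, stood at 253 CPM at P97 and 312 and 269 CPM at P45 in Calb2+ cells, against 215, 216 and 183 CPM in Pvalb+ cells, with no overlap between these groups. Its log2 difference was 0.52 (SE 0.13, edgeR adjusted p = 0.00624). Ndufa2 (0.34, SE 0.10, adjusted p = 0.0246) and Uqcrb (0.33, SE 0.10, adjusted p = 0.0422) were also higher, though Pvalb+ cells carried as much Ndufa2 or more in 2 of the 3 libraries, and neither passed the threshold without the Th+ group. The mt- member mt-Co1 was lower by 0.28 on the log2 scale (SE 0.08, adjusted p = 0.0331), and 9 of 13 mt- members were below 0 in each library.

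In Crh+ cells mt- members were lower, while nuclear members were called lower about as often as comparable genes. Of 13 mt- members, 7 were lower and 11 were below 0 in each of the 3 libraries. Of 88 nuclear members, 4 were lower and 0 higher, where 1.49% of all genes tested were called lower and 3.38% higher (5.09% and 7.36% of the well expressed genes, so that the 4 lie near the background). Leaving out 1 library at a time left 1 or 2 nuclear members called, and without the first P45 library 4 mt- members were. No nuclear member was called, and 1 mt- member was, after thinning to 3000 UMIs, without library as a block or against all Crh- cells, and 0 of either against cells with none of the markers. The median log2 difference was -0.38 for mt- and -0.09 for nuclear members, beside 0.05 for all genes.

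The mt- call with the lowest adjusted p was mt-Atp6, at 11727 CPM at P97 and 12522 and 12430 CPM at P45 in Crh+ cells, against 16383, 18247 and 16983 CPM in Pvalb+ and 18261, 16466 and 15253 CPM in Hpse+ cells. Crh+ cells did not overlap with either, and the log2 difference from the average of the other groups was -0.39 (SE 0.08, edgeR adjusted p = 0.000495). Low levels were not particular to Crh+ cells. For both mt-Atp6 and mt-Co1, Calb2+ cells lay below Crh+ cells at P97 and in the second P45 library, and above them in the first. The 3 catalytic core subunits of complex IV fell together, with mt-Co1 at -0.43, mt-Co2 at -0.38 and mt-Co3 at -0.38 (adjusted p between 0.000622 and 0.00121). The others were mt-Cytb (-0.42), mt-Nd4 (-0.35) and mt-Nd1 (-0.29), so the 7 belonged to complexes I, III, IV and V. These 7 were also called without the Th+ group.

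The nuclear members that were lower in Crh+ cells were Atp5b, the catalytic β subunit of ATP synthase, Atp5f1, the b subunit of its stalk, Uqcrc1, a core protein of complex III, and Cox4i1. Atp5b stood at 295 CPM at P97 and 344 and 310 CPM at P45 in Crh+ cells, against 524, 476 and 370 CPM in Pvalb+ cells, with a log2 difference of -0.46 (SE 0.13, adjusted p = 0.0273). Uqcrc1 stood at 88.6, 107 and 119 CPM in Crh+ cells and 199, 121 and 160 CPM in Pvalb+ cells in the same order, with a log2 difference of -0.66 (SE 0.19, adjusted p = 0.031). The differences were -0.47 for Atp5f1 and -0.30 for Cox4i1 (adjusted p = 0.0345 and 0.0476). Without the Th+ group, Atp5b was still called (-0.39) and the other 3 were not.

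Th+ cells showed single members moving in both directions, on 20 cells of 1 library, so that their spread was assumed to be that of the other groups. Cox6a2 and Atp5f1 were higher, and Cox7b, Cox6c, Ndufa2, Atp5l and Atp5k were lower, of 88 nuclear members, where 1.98% of all genes were called higher and 1.87% lower (4.07% and 7.78% of the well expressed genes). The limit given for Cox6a2 in Pvalb+ cells holds here too. Cox7b was lower by 0.99 and Cox6c by 0.69 on the log2 scale (SE 0.22 and 0.16, edgeR adjusted p = 0.00272 and 0.00601). Atp5f1 stood at 441 CPM in Th+ cells, against 250 in Pvalb+, 209 in Hpse+, 285 in Calb2+ and 263 CPM in Crh+ cells of the same library. Of the mt- members, mt-Co1 was higher, at 7778 CPM in Th+ cells against 5815, 4075, 4926 and 3671 CPM in Pvalb+, Hpse+, Calb2+ and Crh+ cells of that library (log2 difference 0.79, SE 0.13, adjusted p = 6.43e-05). The Th+ group lay lowest of the 5 groups in Cox6c and Cox7b and highest in Cox6a2, where Pvalb+ cells were high in all 3.

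The tdTomato+ library at P97 was compared with the 2 tdTomato+ libraries at P45 over all SST cells. P97 is 1 library from its own mice, so age and library cannot be told apart. The lone P97 library was assumed to vary as the P45 libraries do, so the p-values rest on the spread between those 2. By edgeR, 1 of 91 nuclear members and 3 of 13 mt- members were higher at P97 and 0 lower, where 1.35% of all genes tested were called higher and 0.364% lower (2.37% and 0.897% of the well expressed genes). The median log2 difference was -0.13 for nuclear and 0.30 for mt- members, beside -0.002 for all genes.

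The mt- member that differed most was mt-Atp8, a small membrane subunit of ATP synthase. It stood at 416 CPM at P97, against 23.3 and 23.2 CPM at P45, a log2 difference of 4.14 (SE 0.12, adjusted p = 1.3e-06). Within Pvalb+, Hpse+, Calb2+ and Crh+ cells the log2 difference was between 4.02 and 4.88. The GFP+/tdTomato+ library, from the same mice as the P97 tdTomato+ library, held 215 CPM, about midway on the linear scale. The P97 libraries, of different sorts, thus lay further apart than the P45 libraries did. That spread does not enter the SE or the p-value.

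The bases of mt-Atp8 are shown because its reading frame runs into that of mt-Atp6, which differed little between ages (log2 difference 0.02, adjusted p = 0.961). The gene lies at chrM:7766-7969 on the plus strand of GRCm38 in GENCODE M21, and capitals mark the 43 bases it shares with mt-Atp6 (chrM:7927-8607). With mt-Nd4l (chrM:9877-10173) capitals mark the 7 bases it shares with mt-Nd4. Whether the UMIs assigned to mt-Atp8 and mt-Nd4l stand for transcripts apart from those of mt-Atp6 and mt-Nd4 was not tested.
mt-Atp8: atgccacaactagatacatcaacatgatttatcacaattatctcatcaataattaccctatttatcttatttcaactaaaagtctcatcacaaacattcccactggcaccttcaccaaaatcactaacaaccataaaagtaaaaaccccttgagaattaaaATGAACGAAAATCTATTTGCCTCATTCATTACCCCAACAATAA
mt-Nd4l: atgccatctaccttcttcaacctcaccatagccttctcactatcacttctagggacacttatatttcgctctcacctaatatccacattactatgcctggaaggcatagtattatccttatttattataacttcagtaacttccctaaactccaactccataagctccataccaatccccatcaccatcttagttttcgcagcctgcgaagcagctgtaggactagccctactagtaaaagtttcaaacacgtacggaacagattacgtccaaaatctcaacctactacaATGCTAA

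The gap in mt-Atp8 was also present in barcodes that the filters removed. Per 100000 mt- UMIs, mt-Atp8 had 778 UMIs in kept cells of the P97 tdTomato+ library, and 46.9 and 49.3 in those of the P45 libraries. In barcodes with at least 25% mt- UMIs it had 683 at P97, 0 of 901 mt- UMIs in the 1 such barcode of a P45 library and 53.1 in the 4 of the other. In barcodes with under 3 Sst UMIs it had 669 at P97, and 37.1 and 62.5 at P45. The GFP+/tdTomato+ library had 323, 288 and 379 in the same 3 kinds of barcodes. In each kind of barcode both P97 libraries thus stood above both P45 libraries, and age and library cannot be told apart here.

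The other members that were higher at P97 showed smaller differences. Atp5k stood at 806 CPM at P97, against 398 and 417 CPM at P45 (log2 difference 0.97, SE 0.11, adjusted p = 0.00374), and at 838 CPM in the GFP+/tdTomato+ library. Its log2 difference lay between 0.77 and 0.91 within Pvalb+, Hpse+, Calb2+ and Crh+ cells. For mt-Nd4l, 598 CPM at P97 stood against 195 and 306 CPM at P45 (1.24, SE 0.21, adjusted p = 0.0227), and for mt-Nd5, which shares 14 bases with mt-Nd6 on the other strand, 454 CPM at P97 stood against 268 and 274 CPM at P45 (0.73, SE 0.11, adjusted p = 0.0139). The GFP+/tdTomato+ library held 487 CPM of mt-Nd4l and 467 CPM of mt-Nd5, above both P45 libraries.

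**Figure D5:**
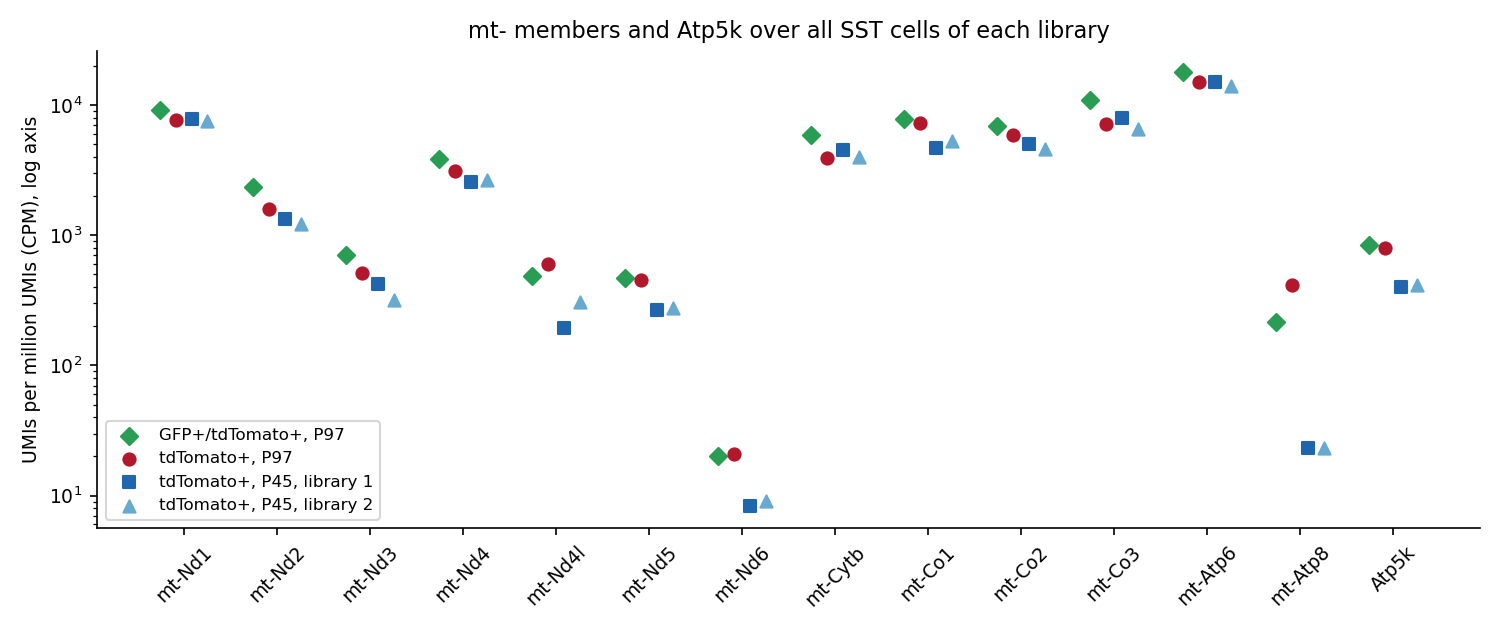
CPM, on a log axis, of the 13 mt- members and Atp5k over all SST cells, with 1 point per library. For mt-Atp8 the P97 libraries stand at 215 and 416 and both P45 libraries near 23.2, while mt-Atp6 lies between 14149 and 17836 in all 4.

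At P97, the GFP+/tdTomato+ cells were set against tdTomato+ cells of the same mice. With 1 library a sort there is no test between sorts, and the intervals given (95%, exact) cover counting error only. The nuclear sum was 41396 CPM in GFP+/tdTomato+ and 34478 CPM in tdTomato+ cells, a ratio of 1.20 (1.19 to 1.21), and the mt- sum was 66695 CPM in GFP+/tdTomato+ and 53414 CPM in tdTomato+ cells, a ratio of 1.25 (1.24 to 1.26). In Hpse+ cells alone the ratios were 1.12 (1.08 to 1.16) and 1.22 (1.19 to 1.25), and in Pvalb+ cells alone 1.09 (1.07 to 1.10) and 1.41 (1.39 to 1.42). Of the 186 GFP+/tdTomato+ cells, only 23 were Hpse+ and 40 Pvalb+ by the same rule, and 103 held several markers. Slc17a7 stood at 227 CPM in these Hpse+ and 68.8 CPM in these Pvalb+ cells, against 0 and 24.1 CPM in those of the tdTomato+ library. Its part in the ratios was not tested. The sorts differed in depth, and among cells of 8000 to 16000 UMIs the nuclear sum was 38901 CPM in GFP+/tdTomato+ and 37068 CPM in tdTomato+ cells, while the mt- sum was 66233 CPM in GFP+/tdTomato+ and 48913 CPM in tdTomato+ cells.

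Of 89 nuclear members with at least 50 UMIs over both libraries, 6 were past 1.5-fold higher in GFP+/tdTomato+ cells and 0 past 1.5-fold lower, where 4.25% of all genes were past it upward and 9.06% downward. Their intervals lay above 1 for 63 and below 1 for 1, Uqcrh at 0.946, with no share of all genes to set beside these counts. The median log2 ratio was 0.24 for nuclear members and -0.06 for all genes. The 6 were Ndufaf1 (1.71), Cox5a (1.64), Atp5f1 (1.62), Ndufa9 (1.62), Ndufc2 (1.61) and Ndufb6 (1.53), of which Cox5a, a subunit of complex IV, had 793 CPM in GFP+/tdTomato+ and 484 CPM in tdTomato+ cells (interval of the ratio 1.55 to 1.73). The most abundant nuclear member, Cox8a, differed little, with 2167 CPM in GFP+/tdTomato+ and 2157 CPM in tdTomato+ cells (interval 0.975 to 1.04).

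Of the 13 mt- members, mt-Co3 (1.54) and mt-Cytb (1.51) were past 1.5-fold higher in GFP+/tdTomato+ cells and mt-Atp8 past it lower (0.518, 0.475 to 0.566). Within Hpse+ cells the ratio of mt-Atp8 was 0.571 (0.408 to 0.796) and within Pvalb+ cells 0.478 (0.400 to 0.568). Ndufc2 had a ratio of 2.41 (1.64 to 3.64) within Hpse+ cells and 1.32 (1.11 to 1.57) within Pvalb+ cells.

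Other genes of energy metabolism gave a frame for the Pvalb+ result. Ppargc1a, the coactivator PGC-1α that drives mitochondrial genes, stood at 287 CPM at P97 and 298 and 269 CPM at P45 in Pvalb+ cells, and 300, 230 and 315 CPM in Hpse+ cells, against 128, 172 and 188 CPM in Crh+ cells, with no overlap between Crh+ cells and either group. It was likewise low in Calb2+ cells (189, 164 and 183 CPM), in cells with none of the markers (157, 138 and 152 CPM) and in the 20 Th+ cells (95.9 CPM). By edgeR it was higher in Pvalb+ (log2 difference 0.71, adjusted p = 0.000109) and Hpse+ cells (0.75, adjusted p = 0.00129), although in the same fit no respiratory chain member was called in Hpse+ cells. Cycs, the cytochrome c that links complexes III and IV, was higher in Pvalb+ cells (0.32, adjusted p = 0.0192), as was Usmg5, a small subunit associated with ATP synthase (0.30, adjusted p = 0.022).

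In Pvalb+ cells, where 4.64% of all genes were called higher and 2.2% lower, 2 of 16 tested genes of the TCA cycle were higher and 0 lower (median log2 difference 0.21), 2 of 16 of glycolysis were higher and 0 lower (0.11), and of 17 assembly factors of complexes III and IV none was called (0.13), with 3 at an unadjusted p under 0.05. In Crh+ cells, where 1.49% of all genes were called lower, 3 of 16 glycolysis genes were lower and 0 higher (median -0.27), and 0 of 16 of the TCA cycle were called either way (-0.27). In Calb2+ cells, where nuclear members had a median of 0.07 and 4.79% of all genes were called higher, 39 of 80 ribosomal protein genes were higher and 0 lower (median 0.33). Immediate early genes, which respond to activity and to cell handling, also moved with this group, with 10 of 13 higher and 0 lower (median 1.51), and their part in the Calb2+ values of the members was not tested.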

How the data were processed

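The authors aligned reads of 4 Chromium 3′ libraries with Cell Ranger 2.0.0 (per the labels) and deposited raw UMI counts per gene and barcode, on GRCm38, with an unstated annotation release. All values are whole counts. Counts were summed per library and cell group, and no other columns were used (0 left aside). Marker groups were compared with edgeR 4.0.16 (quasi-likelihood test, TMM, filterByExpr, library as block) in R 4.3.3, with Benjamini-Hochberg adjustment over all 8603 genes tested. The fit of P97 against P45 had no block and covered 12104 genes. That of all Pvalb+ against all Pvalb- cells kept the block and covered 10855. Sums of under 10 cells were left out. DESeq2 1.42.0 was an alternative. Doublets were not called, and cells with several markers were left out of the marker groups. The block follows from the design, since the cell groups within 1 library share their mice. Deviations of groups from the same library had a median correlation of 0.18 (n = 30 pairs), against -0.09 for different libraries and groups (n = 60). Each deviation was taken from the mean of its group over the 3 libraries. That ties the second value to the first with the opposite sign, so it is not an independent reference. Library labels do not say how many mice the P45 libraries hold, so no p-value measures the spread between mice. In the fits with the block, p-values rest on how far the differences between groups varied among libraries. In the fit of P97 against P45 they rest on the spread between the P45 libraries.

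The GFP+/tdTomato+ comparison used shares of counts, with exact 95% intervals that cover counting error only. Positions came from GENCODE M21 (109 of 109 matched) and promoters from RefSeq. The members and gene lists were chosen with earlier results of these data known. Named genes were isoform pairs, the highest member of each complex, up to 4 nuclear members per direction and comparison with the largest called change of 1 sign in all libraries, and Ppargc1a, Cycs, Usmg5, Atpif1 and Slc25a4, of which the last 2 were called in no marker group; further called members and low isoforms were named after their values were seen. The fits were tested on simulated data with 200 changed genes per comparison. For the Pvalb+ comparison, the test found 69% of the 2-fold changes and 91% of the 4-fold ones, for the Hpse+ comparison 41% and 81%, and for the Th+ comparison 8% and 38%. It found 64% and 85% for Calb2+, 48% and 78% for Crh+, and 55% and 85% for P97 against P45. Of the genes called, 3.61% were false for Pvalb+, 5.43% for Hpse+, 3.25% for Calb2+, 6.67% for Crh+, 2.13% for Th+ and 7.28% for P97 against P45. Changes under 2-fold, such as most of those called here, were not simulated.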

Additional observations from a re-analysis of the deposited data

How the results depend on the processing

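The marker group counts (nuclear and mt- members called: Pvalb+ 7 and 1, Hpse+ 0 and 0, Calb2+ 3 and 1, Crh+ 4 and 7, Th+ 7 and 1, P97 against P45 1 and 3) depended on several choices. Of 224 main counts and ratios recomputed, 114 stayed within 1.5 times or within their interval, and of the single member values 412 kept direction and side of the threshold, 212 no longer passed it, 1 moved and 1 turned.

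With no replicate block, that is without the pairing of groups within a library, 1 nuclear and 0 mt- members were called in Pvalb+, 0 and 0 in Calb2+, 0 and 1 in Crh+, and 4 and 0 in Th+ cells, and 27 of 31 member calls were lost. No paired analysis was possible for P97 against P45 because 1 library is set against 2 from other mice, nor for GFP+/tdTomato+ against tdTomato+ cells, which are 1 library each.

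With cells thinned to 3000 UMIs, the counts were 1 and 0 in Pvalb+, 0 and 0 in Calb2+, 0 and 1 in Crh+, 1 nuclear in Th+ and 6 nuclear at P97, and the GFP+ ratios were 1.23 and 1.35. With no filter on low counts they were 15 and 5 in Pvalb+, 2 mt- in Hpse+ and 5 and 6 at P97. By DESeq2 they were 0 mt- in Pvalb+, 0 mt- in Calb2+ and 2 nuclear in Crh+, and by its size factors in edgeR 0 mt- in Pvalb+. With mt- genes under 10% they were 4 mt- in Pvalb+, 1 mt- in Hpse+ and 2 nuclear in Crh+. With no mt- filter Pvalb+ had 2 mt- and the GFP+ ratios were 1.18 and 1.34. At 4000 or more UMIs the counts were 4 mt- in Pvalb+, 1 mt- in Hpse+, 0 mt- in Calb2+, 2 nuclear in Crh+, 2 mt- in Th+ and 3 nuclear at P97, with ratios of 1.18 and 1.31. At 10 or more Sst UMIs they were 0 mt- in Pvalb+, 0 mt- in Calb2+ and 1 nuclear in Crh+, with an mt- ratio of 1.31. With 2 or more marker UMIs they were 11 and 5 in Pvalb+, 2 and 2 in Hpse+, 11 and 8 in Calb2+ and 3 mt- in Th+. Against cells with none of the markers they were 19 and 3 in Pvalb+, 3 and 1 in Hpse+, 1 and 0 in Calb2+ and 0 and 0 in Crh+. With mt- genes out of the library sizes the ratios were 1.22 and 1.27, and in Hpse+ cells alone 1.12 and 1.22.

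Leaving out each library in turn, the counts ranged from 3 to 7 nuclear and 0 to 4 mt- in Pvalb+, 0 to 1 and 0 to 3 in Hpse+, 0 to 7 and 0 to 1 in Calb2+, 1 to 2 and 4 to 7 in Crh+, and 5 to 10 and 1 to 2 in Th+ cells.

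Of the settings chosen after seeing the data, leaving out Th+ gave 5 mt- in Pvalb+, 1 and 1 in Hpse+, and 1 and 0 in Calb2+. Marker-positive against marker-negative cells gave 35 and 4 for Pvalb, 9 nuclear for Hpse, 0 mt- for Calb2, 0 and 1 for Crh and 4 and 0 for Th. Cells of 5000 to 10000 UMIs gave 0 and 8 in Pvalb+, 1 and 0 in Calb2+, 1 and 4 in Crh+ and 6 nuclear at P97, and there mt-Co1 in Calb2+ cells turned to 0.031 on the log2 scale. Without cells of 20 or more oligodendrocyte marker UMIs, 12 and 2 were called in Pvalb+, 1 nuclear in Hpse+ and 2 nuclear at P97. Groups of 5 or more cells gave 4 nuclear in Pvalb+, 2 nuclear in Hpse+, 1 and 0 in Calb2+ and 13 nuclear in Th+. The causes of these changes were not tested.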
